A study of Mus musculus with 6 samples.

Results

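Tregs restrain other immune cells in part through secreted products, and the mRNA of 6 genes of this arm was followed in BM Tregs of naive and CML mice. They are Il10, the IL-35 subunit genes Ebi3 and Il12a, Fgl2, and the IL-10 receptor chain genes Il10ra and Il10rb. The rows were found by gene symbol, and all 6 members were present once among the 36930 features. RNA was compared between 3 naive mice and 3 CML mice, all 8 weeks old and all of the strain and genotype Foxp3-DTR-GFP, in which the Foxp3 locus drives the diphtheria toxin receptor and GFP. The CML mice were nonirradiated recipients of syngeneic LSKs (lineage-negative, c-kit-positive, Sca-1-positive BM cells) that carried a BCR-ABL1-GFP retrovirus, and their Tregs were taken at day 15 after CML induction. Naive mice received no leukemia. GFP therefore marks both the Tregs of every mouse and the leukemia cells of CML mice.

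IL-10 is a secreted cytokine that dampens antigen presentation and inflammatory cytokine production, and it signals through a receptor of a ligand-binding chain, Il10ra, and a shared chain, Il10rb. The receptor acts through the kinases Jak1 and Tyk2 and the transcription factor Stat3, which induces the feedback inhibitor Socs3. IL-35 is a pair of the Ebi3 and Il12a proteins. Each of the subunits has another partner as well, since Ebi3 pairs with Il27 to form IL-27 and Il12a pairs with Il12b to form IL-12. Fgl2 is a fibrinogen-like protein that Tregs secrete and that binds the inhibitory Fc receptor Fcgr2b on antigen-presenting cells.

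In the GENCODE annotation of build GRCm38, all members are protein-coding genes. Il10 lies on chromosome 1 from 131019845 to 131024974, Ebi3 on chromosome 17 from 55952640 to 55957022, and Il12a on chromosome 3 from 68690644 to 68698547. Fgl2 lies on chromosome 5 from 21372642 to 21378374, Il10ra on chromosome 9 from 45253837 to 45269149, and Il10rb on chromosome 16 from 91406164 to 91425834. RefSeq promoter entries matched 3 members, Fgl2, Ebi3 and Il12a. The 250 bases before the RefSeq start are shown for Fgl2, the member with the smallest p between the groups, and for Ebi3, whose mean lay in the opposite direction. They cover chr5:21372423-21372672 and chr17:55952373-55952622 on the plus strand of GRCm38.p6, and capitals mark matches to the motifs described after them. The RefSeq start of Fgl2 lies downstream of the GENCODE start, so the end of its window is inside the gene as placed by GENCODE.
Fgl2: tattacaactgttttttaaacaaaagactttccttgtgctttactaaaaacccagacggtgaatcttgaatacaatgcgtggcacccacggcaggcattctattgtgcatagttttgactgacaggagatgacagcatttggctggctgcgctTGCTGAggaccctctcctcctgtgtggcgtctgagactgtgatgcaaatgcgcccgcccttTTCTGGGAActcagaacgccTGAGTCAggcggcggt
Ebi3: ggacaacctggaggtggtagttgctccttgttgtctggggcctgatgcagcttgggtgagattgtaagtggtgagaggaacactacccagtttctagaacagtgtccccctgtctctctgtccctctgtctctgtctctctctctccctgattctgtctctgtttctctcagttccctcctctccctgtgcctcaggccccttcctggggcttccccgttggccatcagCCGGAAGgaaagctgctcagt

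Motifs of factors that act on cytokine genes in T cells were searched on both strands, and the share of the 32851 promoter windows of the same length that hold each was counted. The Fgl2 window held an AP-1 motif (TGANTCA) as TGAGTCA at position -16, counted back from the RefSeq start and inside the GENCODE gene, and 6.75% of all windows held one. A MAF half-site (TGCTGA, 16.1% of windows) began at position -97 and a STAT motif (TTCNNNGAA, 7.02% of windows) at position -36. The Ebi3 window held an ETS motif (CCGGAAG, 6.91% of windows) at position -21. The first of the Il12a windows held a GATA motif (NGATAA, 22.5% of windows) at position -89. Pairs of the IRF core (GAAA, any 2 bases, GAAA, 2.98% of windows) and E-boxes (CACGTG, 6.02% of windows) were not found in the windows of these 3 genes. The NFAT core (GGAAA) occurs in 55.6% of all windows, was found in those of Fgl2 and Ebi3, and is not capitalized. In the Ebi3 window its match overlaps the end of the ETS match. The matches describe letters and no measured binding.

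Levels are given as RPKM, which divides reads by feature length and library size, so that genes can be compared. Library depth, estimated from the steps between low values, was 829181 to 7613827 reads in the CML group and 5187987 to 9751911 reads in the naive group. CML replicate 2 had the fewest reads, and 50.7% of its RPKM total came from its 10 highest features, against 28.5% to 31.3% elsewhere. The Treg label was checked against Foxp3, which ranged from 299 to 468 RPKM in CML and from 297 to 367 RPKM in naive libraries. All 6 Treg genes looked up were expressed, with sums of 1417 to 2005 RPKM in CML and 1414 to 1607 RPKM in naive libraries. The B cell gene Pax5 and the neutrophil gene Ly6g had no reads in the 6 libraries. Other genes of B cells and dendritic cells had high values, with 350.2 to 620.2 RPKM of Ighm and 91.9 to 222 RPKM of Siglech. The summed values of 8 neutrophil genes ranged from 8.77 to 211 RPKM in CML and from 23.5 to 53.1 RPKM in naive libraries. Their part in the results was not tested.

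**Figure D1:**
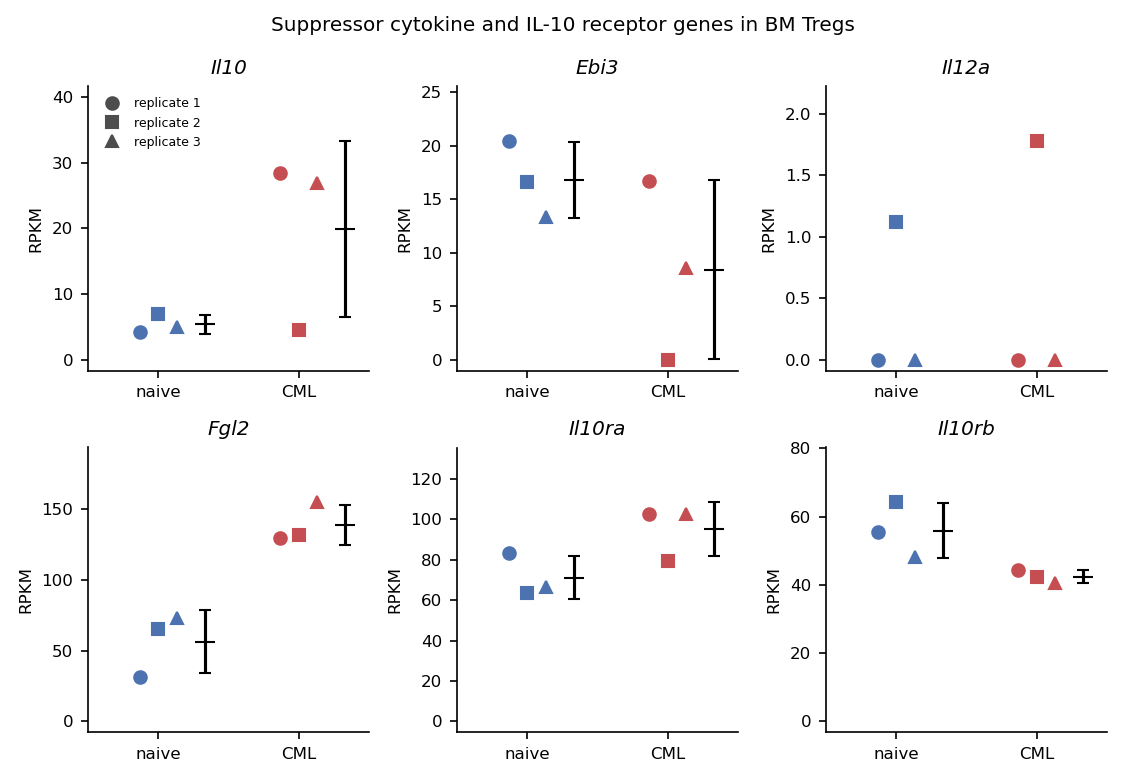
RPKM (vertical axes, from 0) of the 6 genes in each library of naive (blue) and CML (red) Tregs. Symbols mark the replicate number, black bars the mean ± SD of 3 mice, left out for Il12a. CML replicates 1 and 3 stood at 28.4 and 26.9 RPKM of Il10 and CML replicate 2 at 4.49 RPKM, while all 3 CML values of Fgl2 lay above all naive values.

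Fgl2 was the member with the clearest separation between the groups. It measured 129, 132 and 155 RPKM in CML mice 1, 2 and 3, against 31.2, 64.9 and 72.8 RPKM in naive mice 1, 2 and 3. Each CML mouse was above every naive mouse, and naive replicate 1 was the lowest. CML Tregs averaged 139 ± 13.9 RPKM and naive Tregs 56.3 ± 22.1 RPKM (SD, n = 3 each), a ratio of 2.46. On the log2(RPKM + 1) scale, which understates the change of low genes, the difference between CML and naive Tregs was 1.37 (limma standard error 0.31, 95% interval 0.65 to 2.08, unadjusted p = 0.00233, adjusted p = 0.226). It therefore did not pass an adjusted p of 0.05 over the 13923 genes tested, among which it ranked 218 by difference. An exact 2-sided permutation test gave p = 0.1, below which 3 against 3 mice cannot go. Without naive replicate 1 the difference was 1.0. In these bulk libraries, more cells with a transcript and more transcript per cell cannot be told apart.

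Because Fgl2 is also expressed by macrophages, the values of macrophage and monocyte genes are given beside it. Csf1r, the receptor that defines macrophages, had 0 to 0.609 RPKM in CML and 0.83 to 1.83 RPKM in naive libraries, and C1qa had no reads in the 3 CML libraries. The 7 macrophage and monocyte genes present summed to 13.8 to 26.1 RPKM in CML and 10.2 to 11.6 RPKM in naive libraries, and these ranges did not overlap. Of the 3 genes of this list that were tested, 0 passed the adjusted or the unadjusted threshold in limma. Fgl2 lies inside the gene Ccdc146 on the opposite strand, shares none of its exonic bases with it, and exceeded it in every library, since Ccdc146 had at most 1.64 RPKM.

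Il10 was high in only some of the CML mice. It measured 28.4, 4.49 and 26.9 RPKM in CML mice 1, 2 and 3, against 4.31, 7.01 and 4.97 RPKM in naive mice 1, 2 and 3. CML replicate 2 lay within the naive range, and the other CML libraries lay above it. CML Tregs averaged 19.9 ± 13.4 RPKM and naive Tregs 5.43 ± 1.41 RPKM (SD, n = 3 each), a ratio of 3.67. The difference was 1.38 on the log2(RPKM + 1) scale (limma standard error 0.66, 95% interval -0.13 to 2.90, unadjusted p = 0.0685, adjusted p = 0.553), with an exact 2-sided permutation p of 0.3. The spread between CML mice was too large for this difference to pass the test. Leaving out CML replicate 2 moved the ratio of the means to 5.09 and the difference to 2.18 (limma unadjusted p = 0.00028, adjusted p = 0.0689).

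Erythroid genes had a similar pattern over the CML libraries. The 5 erythroid genes looked up summed to 75.5, 13.8 and 89.95 RPKM in CML mice 1, 2 and 3, against 16.4, 18.6 and 3.62 RPKM in naive mice 1, 2 and 3, so that CML replicates 1 and 3 were high here as well. Of the 4 tested in limma, the hemoglobin genes Hba-a1 and Hbb-bt were higher at an unadjusted p under 0.05 with a fold of 1.5. Of all genes, 2.61% were higher at this threshold. Among the 4 erythroid genes, 0 passed the adjusted threshold. Their part in the Il10 values was not tested.

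The value of CML replicate 2 rests on few Il10 reads. At the length of the longest coding transcript, 1310 bases, it corresponds to about 5 reads, compared with about 283 in CML replicate 1, about 81 in CML replicate 3, and about 29, 81 and 63 in naive replicates 1, 2 and 3. The exact Poisson 95% interval of these 5 reads runs to 10.7 RPKM, which is below the values of the other CML libraries. At the mean of CML replicates 1 and 3, about 30 reads would have been counted in CML replicate 2. Such intervals and read limits hold the error of counting alone, as PCR copies cannot be told from separate molecules.

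Ebi3, the IL-35 subunit that is shared with IL-27, was lower on average in CML Tregs. It measured 16.7, 0 and 8.60 RPKM in CML mice 1, 2 and 3, against 20.5, 16.6 and 13.3 RPKM in naive mice 1, 2 and 3. CML replicates 2 and 3 lay below the naive range, and CML replicate 1 lay inside it. The naive mean was 16.8 ± 3.57 RPKM (SD, n = 3). The difference was -1.66 on the log2(RPKM + 1) scale, and its interval included 0 (limma standard error 0.96, 95% interval -3.88 to 0.56, unadjusted p = 0.122, adjusted p = 0.611; exact 2-sided permutation p = 0.3). Without CML replicate 2 it was -0.43. In CML replicate 2, 3 reads of Ebi3 correspond to 3.13 RPKM, and about 16.1 reads would have been counted at the naive mean. All 12 genes used by every cell that were looked up had reads in this library. They were not matched to the level of Ebi3, so they cannot show how often a gene at its level is missed there.

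The counting of Ebi3 is also uncertain. The antisense gene Gm16712 shares 270 of the 1154 exonic bases of Ebi3 (23.4%), and a library kit that does not mark the strand cannot assign reads in that stretch. Gm16712 measured 10.2, 4.87 and 6.52 RPKM in CML mice 1, 2 and 3, against 9.35, 4.66 and 9.10 RPKM in naive mice 1, 2 and 3. The groups overlapped for this gene.

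Il12a, the partner that Ebi3 needs to form IL-35, was low and had no reads in most libraries. Its values were 1.78 RPKM in CML replicate 2 and 1.12 RPKM in naive replicate 2, and it had no reads in the other 4 libraries. These values correspond to about 2 and about 13 reads. Where no read was counted, 3 reads would have been 0.302 RPKM in CML replicate 1, 1.01 RPKM in CML replicate 3, 0.444 RPKM in naive replicate 1 and 0.236 RPKM in naive replicate 3. With a mean of 0.484 RPKM over the 6 libraries, Il12a did not reach the minimum of 1 RPKM and was not tested. A difference between the groups was not detectable at this depth.

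Il10ra, the ligand-binding chain of the IL-10 receptor, measured 103, 79.5 and 103 RPKM in CML mice 1, 2 and 3, against 83.0, 63.5 and 66.3 RPKM in naive mice 1, 2 and 3. CML replicate 2 lay below naive replicate 1, so the groups overlapped. The difference was 0.41 on the log2(RPKM + 1) scale (limma standard error 0.19, 95% interval -0.02 to 0.85, unadjusted p = 0.0604, adjusted p = 0.536; exact 2-sided permutation p = 0.2). Il10rb, the chain that receptors for IL-22 and type III interferons share, measured 44.3, 42.4 and 40.6 RPKM in CML mice 1, 2 and 3, against 55.5, 64.2 and 48.1 RPKM in naive mice 1, 2 and 3. The highest CML library lay below the lowest naive library, and the CML libraries differed from each other by less than the naive libraries did. The difference was -0.38 (limma standard error 0.19, 95% interval -0.81 to 0.05, unadjusted p = 0.0762, adjusted p = 0.564; exact 2-sided permutation p = 0.1). The gene Gm21970 on the same strand shares 569 of the 1850 exonic bases of Il10rb (30.8%), so reads of both cannot be separated there.

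Of the 5 members that were tested, 0 passed an adjusted p of 0.05 with a fold of 1.5 in limma, compared with 0.172% of all genes (0.0431% higher and 0.129% lower in CML Tregs). Fgl2 alone passed at an unadjusted p of 0.05 with this fold, compared with 8.55% of all genes at this threshold (2.61% higher and 5.94% lower). Libraries that did not overlap were found for Fgl2 among the higher genes (4.84% of all genes) and for Il10rb among the lower genes (12.2% of all genes). The median difference of the 5 members was 0.41, and that of all genes was -0.18. Quantile normalization moved the median of all genes to -0.007, and the differences were then 1.60 for Il10, 1.41 for Fgl2, 0.47 for Il10ra, -0.32 for Il10rb and -1.40 for Ebi3, with the same signs as before. Il10 then also passed the unadjusted threshold, so that 2 of the 5 members did. The same 2 passed with 3 other scalings or weights and without CML replicate 2. Of all genes, 4.48% passed it as higher with quantile normalization, 3.24% to 3.31% with those 3 settings, and 4.87% without CML replicate 2. Without CML replicate 1, Ebi3 passed the unadjusted threshold as lower beside Fgl2 (difference -2.50, limma unadjusted p = 0.0318). Of the 13887 genes tested there, 1758 passed it in either direction, and 3.32% of all genes passed it as higher. Il10 did not pass it there (difference 0.97, limma unadjusted p = 0.222).

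**Figure D2:**
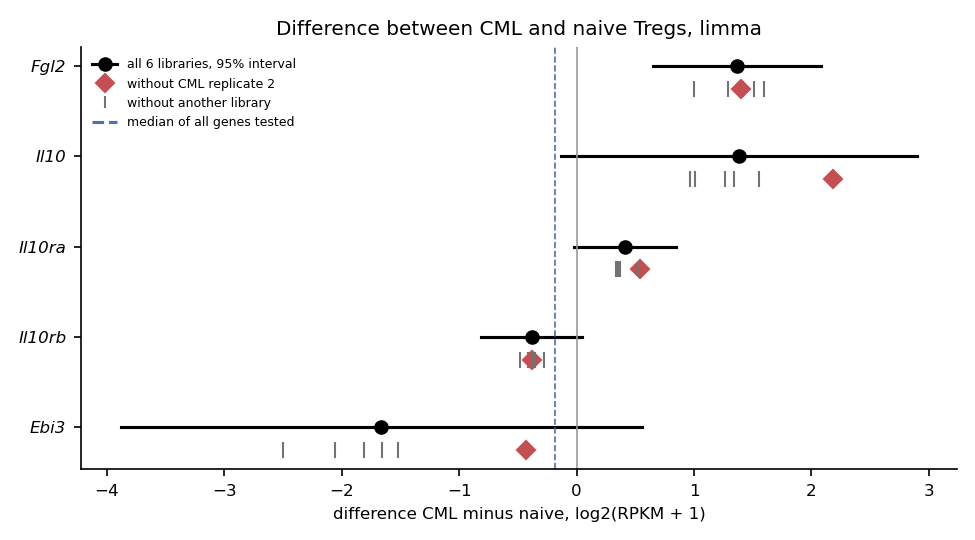
Difference between CML and naive Tregs on the log2(RPKM + 1) scale (horizontal axis) for the 5 tested genes (vertical axis), with black points and 95% intervals from all 6 libraries. Red diamonds and gray ticks show the fits without 1 library, and the dashed line marks the median of all genes, -0.18. Without CML replicate 2, Il10 moved from 1.38 to 2.18 and Ebi3 from -1.66 to -0.43, while Fgl2 stayed at 1.40.

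By level, the receptor chains and Fgl2 stood above the cytokine genes in every library. In the 3 CML libraries the order was Fgl2, Il10ra, Il10rb and Il10. The CML ranges of these neighbors did not overlap. In the naive libraries, the ranges of Fgl2, Il10ra and Il10rb overlapped and their order differed between mice. Ebi3 was above Il10 in all 3 naive libraries, with 13.3 to 20.5 RPKM compared with 4.31 to 7.01 RPKM, and below it in all 3 CML libraries.

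Within each library, 6 ratios were compared on the log2 scale after adding 1 to each RPKM, which weighs most on genes near 0, with exact 2-sided permutation tests and adjustment over the 6 ratios. The ratio of Il10ra to Il10rb was 1.20, 0.89 and 1.32 in CML replicates 1, 2 and 3, and 0.57, -0.02 and 0.46 in naive replicates 1, 2 and 3. The CML libraries lay above the naive libraries, with means of 1.13 ± 0.22 (SD, n = 3) and 0.34 ± 0.31 (SD, n = 3) and an exact permutation p of 0.1 (adjusted p = 0.2). The ratio of Fgl2 to Foxp3 also separated the groups, at -1.49 ± 0.34 in CML and -2.65 ± 0.50 in naive Tregs (SD, n = 3 each; exact permutation p = 0.1, adjusted p = 0.2). So did that of Ebi3 to Foxp3 in the opposite direction, at -4.73, -8.23 and -5.48 in CML replicates 1, 2 and 3, compared with -3.80, -4.39 and -4.61 in naive replicates 1, 2 and 3 (exact permutation p = 0.1, adjusted p = 0.2). The value of CML replicate 2 rests on 0 Ebi3 reads and the added 1, and without it the difference between the means moved from -1.88 to -0.84.

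For the other 3 ratios, the libraries overlapped. The difference between CML and naive means was 1.17 for Il10 to Foxp3 (exact permutation p = 0.2, adjusted p = 0.3), 0.97 for Il10 to Il10ra (p = 0.3, adjusted p = 0.36) and -1.79 for Ebi3 to Il12a (p = 0.5, adjusted p = 0.5). CML replicate 2 held the lowest CML value of each of these ratios, and without it the differences were 1.77, 1.64 and -0.07.

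**Figure D3:**
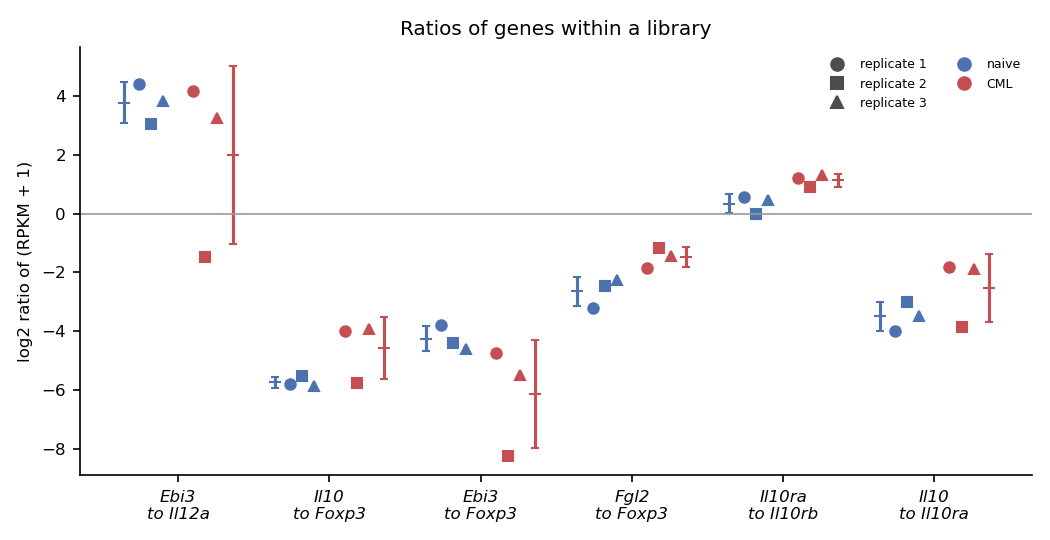
Log2 ratio of RPKM + 1 between pairs of genes (horizontal axis) within each library of naive (blue) and CML (red) Tregs, with the mean ± SD of 3 mice as bars. The Il10ra to Il10rb ratio ran from 0.89 to 1.32 in CML and from -0.02 to 0.57 in naive Tregs, while CML replicate 2 stood apart in the ratios with Ebi3 and Il10.

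Of 12 transcription factors known to act on Il10 in T cells, 0 passed an adjusted p of 0.05 in limma, and 5 were higher at an unadjusted p under 0.05 with a fold of 1.5, compared with 2.61% of all genes. These were Prdm1, Egr2, Bhlhe40, Nfil3 and Maf, of which the last pair was named after their values were seen. Prdm1, which encodes Blimp-1, an activator of Il10 in effector Tregs, measured 53.5, 39.4 and 51.9 RPKM in CML mice 1, 2 and 3, against 19.9, 21.3 and 21.9 RPKM in naive mice 1, 2 and 3. Each CML mouse was above every naive mouse, and the difference was 1.15 (limma standard error 0.21, unadjusted p = 0.0007, adjusted p = 0.131). Egr2, a factor induced by T cell receptor signals, had 11.2 ± 2.50 and 2.38 ± 0.85 RPKM (SD, n = 3; limma adjusted p = 0.218). Bhlhe40, a repressor of Il10, had 73.6 ± 26.6 and 37.4 ± 4.48 RPKM (SD, n = 3; limma adjusted p = 0.346), again without overlap. The libraries of Nfil3 and Maf overlapped. The median difference of the 12 genes was 0.55, and 10 of the 12 lay above 0, compared with 35.7% of all genes. Without CML replicate 2, 6 of the 12 genes passed the unadjusted threshold as higher, compared with 4.87% of all genes.

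Of 12 genes of IL-10 receptor signaling and response, 0 passed the adjusted threshold in limma and 3 were higher at the unadjusted threshold, compared with 2.61% of all genes. Bcl3, a nuclear cofactor of NF-kB, had 48.4 ± 9.002 RPKM in CML and 24.1 ± 4.42 RPKM in naive Tregs (SD, n = 3; limma unadjusted p = 0.00348, adjusted p = 0.245). Socs1, an inhibitor of Jak kinases, had 45.6 ± 8.45 and 24.0 ± 2.98 RPKM (SD, n = 3; limma adjusted p = 0.273). Socs3, the inhibitor that Stat3 induces, measured 56.2, 78.3 and 83.2 RPKM in CML mice 1, 2 and 3, against 42.1, 44.4 and 38.1 RPKM in naive mice 1, 2 and 3 (limma adjusted p = 0.282). For each of these 3 genes, the lowest CML library lay above the highest naive library. CML replicate 2 had the lowest Il10 and Socs1 of the CML libraries, and CML replicate 1 the lowest Socs3. Bcl3 was nearly equal in CML replicates 2 and 3, at 43.0 and 43.5 RPKM. CML replicate 2 also had the fewest reads and the lowest CML values of Foxp3, Jak1 and Tyk2. The receptor kinases Jak1 and Tyk2 had differences of -0.18 and -0.03 (limma adjusted p = 0.718 and 0.980). The median of the 12 genes was 0.39. Without CML replicate 2, 5 of the 12 genes passed the unadjusted threshold as higher, compared with 4.87% of all genes.

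**Figure D4:**
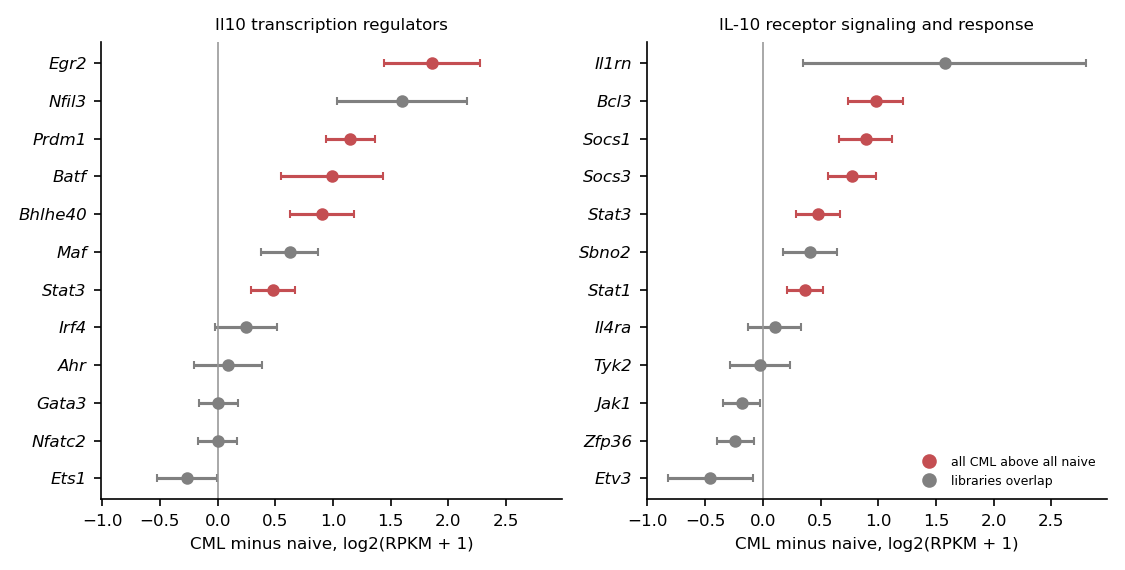
Difference between CML and naive Tregs on the log2(RPKM + 1) scale (horizontal axes) for 12 Il10 transcription regulators (left) and 12 genes of IL-10 receptor signaling and response (right), with limma standard errors. Red points mark genes whose CML libraries all lay above the naive libraries, which was the case for 5 genes in each panel and for 4.84% of all genes. Stat3 is in both lists.

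The cytokine partners of the IL-35 subunits were close to absent. Il12b, and Il23a, which encodes a subunit of IL-23, had no reads in the 6 libraries, and Il27 had 1.59 RPKM in CML replicate 1, 2.07 RPKM in naive replicate 1 and no reads in the others. Of the 4 receptor chains of this family that were tested, 0 passed the adjusted or the unadjusted threshold with the fold in limma. Il27ra, the specific chain of the IL-27 receptor, measured 84.9, 65.1 and 73.6 RPKM in CML mice 1, 2 and 3, against 94.6, 114 and 91.8 RPKM in naive mice 1, 2 and 3. The CML values were below each naive value (difference -0.42, limma unadjusted p = 0.0457, adjusted p = 0.506). Il6st, the chain that IL-27 and IL-35 receptors share, also did not overlap between the groups, with a difference of -0.38 (limma adjusted p = 0.595). Of all genes, 12.2% were lower in CML without overlap, and the median difference of all genes was -0.18. Il12rb1, a chain of the IL-12 and IL-23 receptors, had 34.2 ± 16.0 and 20.5 ± 5.67 RPKM (SD, n = 3; limma adjusted p = 0.654), with overlapping libraries. The median of the 4 receptor chains was 0.08. Without CML replicate 2, 1 of the 4 passed the unadjusted threshold as higher, compared with 4.87% of all genes.

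Among 11 further cytokines and receptor chains of the IL-10 family, such as Il22 and Il20ra, 10 had no reads in the 6 libraries. Il20rb, the 1 gene tested, had at most 5.204 RPKM, and its libraries overlapped (difference 0.35, limma adjusted p = 0.889). Fgl1, the relative of Fgl2, had no reads. The Fgl2 receptors Fcgr2b and Fcgr3 were low, at 4.22 ± 1.66 and 2.17 ± 3.34 RPKM in CML Tregs (SD, n = 3), and overlapped between the groups (limma adjusted p = 0.605 and 0.716).

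Other secreted products with suppressive activity formed a list of 6 genes, of which 0 passed the adjusted threshold in limma and 2 were higher at the unadjusted threshold, compared with 2.61% of all genes. Gzmb, the cytotoxic protease granzyme B, measured 123, 112 and 178 RPKM in CML mice 1, 2 and 3, against 6.74, 15.02 and 31.2 RPKM in naive mice 1, 2 and 3 (difference 3.10, limma unadjusted p = 0.00021, adjusted p = 0.0729). Penk, the precursor of enkephalin peptides, measured 61.7, 88.2 and 142 RPKM in CML mice 1, 2 and 3, against 22.2, 26.1 and 15.5 RPKM in naive mice 1, 2 and 3 (difference 2.09, limma adjusted p = 0.0793). For both genes the groups did not overlap, as for 4.84% of all genes that were higher in CML. Because CD8 T cells also express Gzmb, genes of CD8 T and NK cells are given beside it. The 5 looked up summed to 51.1 to 79.9 RPKM in CML and 27.6 to 60.3 RPKM in naive libraries. Of these, Cd8b1 had 35.7 to 66.8 and 23.4 to 52.2 RPKM. Of the 2 tested, 0 passed the adjusted or the unadjusted threshold in limma. Their part in the Gzmb values was not tested. The galectin gene Lgals1 had 309 ± 109 and 319 ± 43.0 RPKM (SD, n = 3; limma adjusted p = 0.915). The median of the 6 genes was 0.04.

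The genes with the pattern most like each member were sought among features with a mean of at least 10 RPKM, by Pearson r of log2(RPKM + 1) over the 6 libraries, which share group and depth. For Il10 they were Farp1 (r = 0.997), Rpain (r = 0.992) and Mapkapk2 (r = 0.988). Farp1 measured 20.1, 9.61 and 18.8 RPKM in CML mice 1, 2 and 3, against 9.09, 10.8 and 9.22 RPKM in naive mice 1, 2 and 3. Like Il10, it was high in CML replicates 1 and 3 only. For Fgl2 they were Nol10 (r = 0.996), Abcb1a (r = 0.985) and Ttn (r = 0.983), and Abcb1a had 63.0 to 77.1 RPKM in CML and 25.8 to 44.5 RPKM in naive Tregs. For Ebi3 they were Rapgef1 (r = 0.999), Cux1 (r = 0.997) and Fryl (r = 0.996), which were lowest in CML replicate 2. For Il10ra they were Gm13669 (r = 0.993), Nkg7 (r = 0.990) and Lag3 (r = 0.973), and for Il10rb Crim1 (r = 0.988), Fam169b (r = 0.982) and Tcp11l2 (r = 0.978). They are the 3 closest of 7852 features each, and with 6 libraries the values are a description.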

How the data were processed

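Tregs were FACS purified from BM, and libraries were made with the SMART-Seq v4 kit. Using SeqMan NGen for assembly and ArrayStar for analysis, the authors deposited 1 value per feature and mouse, which was read as RPKM. The unit is not named in the sources used here. The submitters' processing notes name GRCm38 (mm10). A value of 0.001 stands for no reads and was set to 0. Reads per library were estimated from RPKM steps of microRNA and small nucleolar RNA genes (31.7% to 58.5% of products within 0.05 of a whole number of steps, without those defining the step). The read numbers, expected reads, Poisson intervals and read limits given for the members rest on these estimates. The tests between the groups did not use them.

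Genes that averaged 1 RPKM or more over the 6 libraries were tested with limma 3.58.1 (R 4.3.3, trended prior, Benjamini-Hochberg adjustment) on log2(RPKM + 1), since the values are not counts. Single values were compared with exact permutation tests (Python 3.11.15, scipy 1.17.1). Libraries are from separate mice. Shared replicate numbers mark different mice and were not used to pair them.

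The members and lists were chosen with earlier results of these data known, and Il10 and Fgl2 belong to the genes the authors selected from these libraries. All 6 members were named, and of each list the called genes and up to 3 with the lowest p, together with the 3 genes most like each member. Genes that fall under a reporting restriction are not reported here. Marker lists for Treg and neutrophil genes are given with the library depths. Those for macrophage genes are given beside Fgl2, for erythroid genes beside Il10, and for CD8 T and NK cell genes beside Gzmb.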

Additional observations from a re-analysis of the deposited data

How the results depend on the processing

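The number of genes called in limma among all genes, 24 with the settings used, was 53 with quantile normalization (23 higher and 30 lower, compared with 6 and 18), 53 when libraries were scaled to 1 upper quartile (21 and 32), 48 with the same sum without the 10 highest features (18 and 30), 45 with library weights (17 and 28), 11 without a trend in the prior variance, and 1 without the filter on low values, where more genes were tested. Leaving out 1 library gave 0 to 29 genes, with 0 without naive replicate 1 or 2, 3 without naive replicate 3 and 8 without CML replicate 3 (745, 731, 829 and 1440 genes at the unadjusted p). The labels do not say whether libraries with the same replicate number share more than that number. Their deviations from the group means correlated at 0, 0 and -0.02, which does not settle it. With the replicate number as a block, 1 gene was called, and the block changed no call of a member. The cause of these shifts was not tested. Each of the 5 tested members kept its direction and stayed above an adjusted p of 0.05 in all 16 alternatives. The differences ranged from 0.97 to 2.18 for Il10 (adjusted p 0.0689 to 0.894), from -2.77 to -0.43 for Ebi3, from 1.0 to 1.60 for Fgl2 (adjusted p 0.164 to 0.525), from 0.34 to 0.54 for Il10ra and from -0.48 to -0.28 for Il10rb. The 6 ratios kept their direction in 9 alternatives each, and Ebi3 to Il12a ranged from -2.97 to -0.07. The counts of list genes without CML replicate 2 were added after seeing the data. Among the listed genes, Prdm1 passed an adjusted p of 0.05 in 4 and Penk in 3 of 16 alternatives. Il12a could be fitted only without the filter (difference 0.13). The depth of CML replicate 2 limits statements on genes near 1 RPKM, where 1 read of Il10 is 0.921 RPKM.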
